A study of Mus musculus with 6 samples.

Results

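Cone transducin and the cone cyclic GMP phosphodiesterase (PDE6) were described through their 5 subunit genes, Gnat2, Gnb3, Gngt2, Pde6c and Pde6h. The genes were taken by name from a table of 9720 protein-coding genes. All 5 were in the table and all 5 passed the filter on low values. They were compared between 3 control and 3 knockout libraries of mouse retinal cones, with the level in each library and the ratios between subunits within each library.

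The control group had the genotype HRGPcre;Bmal1f/+;Z/EG, with 1 floxed copy of Bmal1, and the knockout group had HRGPcre;Bmal1f/f;Z/EG, with both copies floxed. Both groups carried the same Cre transgene, driven by a human red/green cone pigment promoter, and the same Z/EG reporter, so a control cone is heterozygous for Bmal1 after recombination. The strain was C57BL/6 on a mixed background, with 2 age labels that differ, postnatal days 60 to 80 in one and 2 to 6 months in another. The light cycle was 12 h on and 12 h off, and the hour of dissection was not given. Cells positive for eGFP were sorted from dissociated neural retina, and poly(A) RNA was sequenced from 100 ng of RNA per library. How many animals went into each library is not labelled. The p-values therefore reflect the spread among these libraries alone, and part of it may be technical.

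In a cone, light-activated opsin makes the transducin alpha subunit exchange GDP for GTP and leave its beta and gamma partners. The alpha subunit then binds the inhibitory gamma subunit of PDE6 and releases the catalytic subunits, which break down cyclic GMP, so that cation channels close. Rods use the same chain with their own paralogs of most subunits, and the cone forms are widely used as markers of cones.

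Levels are in FPKM, a fragment count divided by transcript length and library size, and the read depth is unknown. Sums over the table ran from 84995 to 128773 FPKM per library. Gm17364, a predicted gene, took 10.03% of the total of control 3. Control 1 had the lowest mean correlation with the other libraries across genes, at 0.90 against 0.93 to 0.95 for the other 5. The targeted gene Arntl read 2.9998, 2.60 and 3.27 FPKM in the controls, against 3.37, 2.28 and 3.48 in the knockouts. This value is for the gene as a whole, and which exons are floxed is not given in the labels, so it does not check them. Of the 16 cone markers all were in the table, with summed levels of 4688 to 7775 FPKM in control and 6506 to 7579 FPKM in knockout. This list includes the 5 subunits described here, so it is not a separate measure of cone content. The subunits made up 3063 of its mean of 6628 FPKM in control and 2598 of 6978 FPKM in knockout. Of the 16 markers, 7 had a positive and 9 a negative log2 difference, knockout minus control. Of the 15 rod markers all were in the table too, with summed levels of 3018 to 3702 FPKM in control and 2578 to 3631 FPKM in knockout, and none was at the floor of 0.1 FPKM in any library. Of 17 markers of other retinal cells 6 were tested, and the list summed to 13.4 to 38.1 FPKM in control, highest in control 1, and to 11.5 to 15.3 FPKM in knockout. Stmn2, a neuronal gene named after its values were seen, read 21.1 FPKM in control 1 and 0.67 FPKM or less in the other 5 libraries. Control 1 was also the lowest control for all 5 subunits described here.

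The 5 cone subunits were among the most abundant transcripts of the sorted cells in both groups. Gngt2 and Gnat2, the gamma and alpha subunits of transducin, stood between rank 2 and rank 9 of the 9720 genes in every library. Pde6h, Gnb3 and Pde6c stood between rank 19 and rank 55. All 5 had a lower mean in the knockout, by 1.06-fold for Pde6c to 1.54-fold for Pde6h, but for each gene the control and knockout libraries overlapped, and groups that do not overlap were seen for 9.39% of the genes tested. None of the 5 passed an adjusted p of 0.05 in limma over all tested genes, against 0.104% of the 8627 genes tested, and none had an unadjusted p under 0.05, against 5.49%. With the rod marker level as a covariate the log2 differences, knockout minus control, were -0.44 for Gnat2, -0.39 for Gnb3, -0.29 for Gngt2, -0.23 for Pde6c and -0.82 for Pde6h, beside a median of -0.17 over all genes. Without the covariate they were -0.11, -0.25, -0.21, -0.07 and -0.60, beside -0.02, and no member passed in limma either way. In a bulk library, fewer cones and less RNA per cone cannot be told apart.

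Gnat2 encodes the alpha subunit of cone transducin, which carries the GTP and activates PDE6. The gene spans chromosome 3, 108092789 to 108101432, plus strand in GRCm38, and its identifier is ENSMUSG00000009108.15. It read 717, 1086 and 1377 FPKM in controls 1, 2 and 3, against 720.2, 984 and 1201 in knockouts 1, 2 and 3, the order used below for every gene. Control 1 and knockout 1 were nearly equal and lowest, and control 3 was highest. The mean was 1060.1 ± 330.4 FPKM in control and 968 ± 241 FPKM in knockout (SD, n = 3 each). The log2 difference, knockout minus control on the scale of log2(FPKM + 1), was -0.11 ± 0.35 (SE), with a 95% interval from -0.87 to 0.64 and an adjusted p of 0.9996 in limma. The interval runs from 0.55 to 1.56 times the control level.

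Gnb3 encodes the beta subunit that pairs with it, which ON bipolar cells of the retina also use. The gene spans chromosome 6, 124834240 to 124840275, minus strand. It read 218, 231 and 272 FPKM in the controls, against 185, 187 and 238 in the knockouts. Knockouts 1 and 2 lay below all controls and knockout 3 lay within the control range. The mean was 240.3 ± 28.2 FPKM in control and 203 ± 30.3 FPKM in knockout, a log2 difference of -0.25 ± 0.26 with a 95% interval from -0.81 to 0.32 (adjusted p = 0.99, limma). Of 18 markers of bipolar cells, 10 were tested and none passed over all genes. An unadjusted p under 0.05 in limma was seen for 2, against 5.49% of all tested genes. Those 2 were Gng13 and Rgs7, and Rgs7, a regulator of the ON bipolar cascade, measured 17.4 ± 4.14 and 11.5 ± 2.05 FPKM (adjusted p = 0.90, limma). Chosen after its values were seen, Gnao1, the G protein alpha subunit of the ON bipolar cascade, measured 15.8 ± 3.42 and 18.0 ± 7.36 FPKM. Gng13, the gamma subunit of the same cells, measured 4.28 ± 1.79 and 1.79 ± 0.54 FPKM (adjusted p = 0.61, limma). The summed bipolar level was 136 to 195 FPKM in control and 144 to 165 FPKM in knockout.

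Gngt2 encodes the cone gamma subunit, a short lipid-modified protein that holds the beta subunit at the membrane. The gene spans chromosome 11, 95837216 to 95845734, plus strand. It read 786, 1745 and 1102 FPKM in the controls, against 832, 1020.3 and 1153 in the knockouts. Control 2 stood above the other 5 libraries, and the 3 knockouts lay inside the control range. The mean was 1211 ± 489 FPKM in control and 1002 ± 162 FPKM in knockout, a log2 difference of -0.21 ± 0.35 with a 95% interval from -0.98 to 0.56 (adjusted p = 0.9996, limma). Without control 2 the difference turned to 0.09, and its adjusted p was 0.99 in limma.

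Pde6c encodes the catalytic subunit of cone PDE6, the enzyme that breaks down cyclic GMP. The gene spans chromosome 19, 38132781 to 38183958, plus strand. It read 185, 238 and 251 FPKM in the controls, against 225, 224 and 188 in the knockouts. All 3 knockouts lay inside the control range, and its 1.36-fold ratio of highest to lowest library was the narrowest of the 5 genes. The mean was 225 ± 34.9 FPKM in control and 213 ± 21.2 FPKM in knockout, a log2 difference of -0.07 ± 0.26 with a 95% interval from -0.64 to 0.50 (adjusted p = 0.9996, limma).

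Pde6h encodes the inhibitory gamma subunit of cone PDE6, which holds the enzyme inactive in the dark. The gene spans chromosome 6, 136923832 to 136968865, plus strand. It read 209, 425 and 347 FPKM in the controls, against 158, 195 and 284 in the knockouts. Knockouts 1 and 2 lay below all controls, whereas knockout 3 lay above control 1. The mean was 327 ± 109 FPKM in control and 212 ± 64.9 FPKM in knockout. The log2 difference of -0.60 ± 0.34 was the largest of the 5, with a 95% interval from -1.33 to 0.13 (unadjusted p = 0.097, adjusted p = 0.91, limma). That interval runs from 0.40 to 1.09 times the control level. Without control 1 the difference was -0.89 (unadjusted p = 0.0083, adjusted p = 0.31, limma), and without control 2 it was -0.38 (adjusted p = 0.97, limma).

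**Figure D1:**
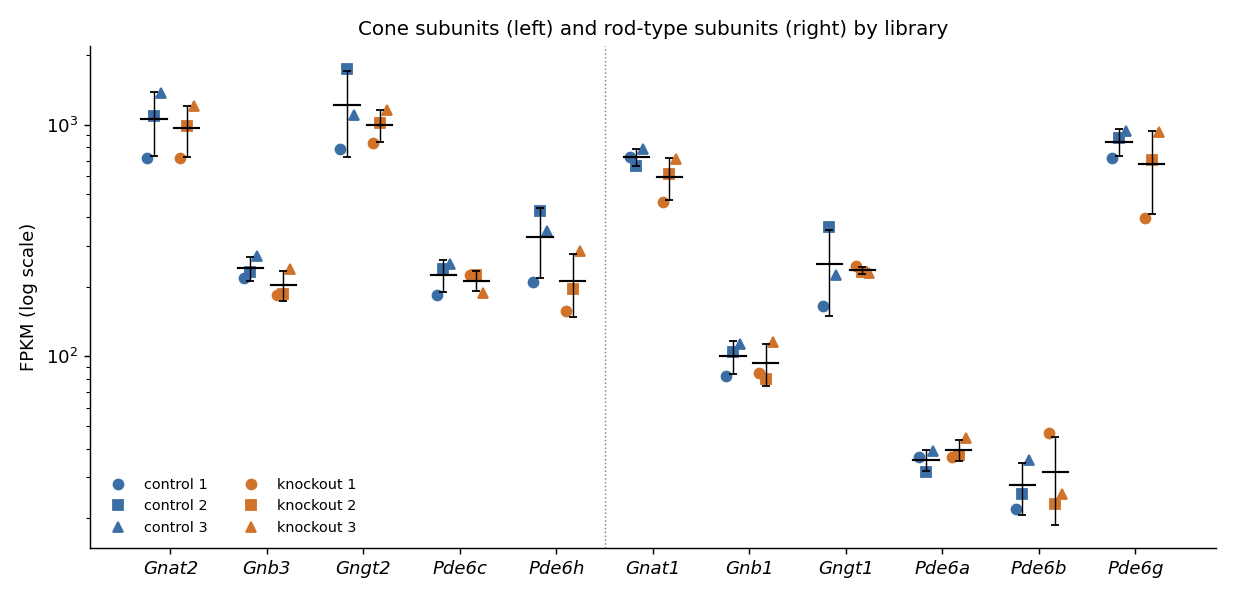
FPKM on a log axis for the 5 cone subunits (left of the dotted line) and 6 rod-type subunits (right), with controls in blue and knockouts in orange, 1 point per library, a black bar for the mean and error bars for the SD (n = 3). For every gene shown the points of both groups overlap, and Gngt2 ranges furthest in control, from 786 to 1745 FPKM.

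The spread between libraries differed among the 5 genes. Within the control group the coefficient of variation was 11.7% for Gnb3, 15.6% for Pde6c, 31.2% for Gnat2, 33.5% for Pde6h and 40.4% for Gngt2. Within the knockout group it was 9.96% for Pde6c, 14.9% for Gnb3, 16.1% for Gngt2, 24.8% for Gnat2 and 30.6% for Pde6h. Gngt2 and Pde6h both peaked in control 2, at 0.71 and 0.74 log2 units above their own means over the 6 libraries. Shorter transcripts were high in that library in general. The 857 tested genes with a principal transcript under 1200 bp had a median of 0.29 above their own means in control 2, and the 2866 genes with one of 4000 bp or more had a median of -0.12. The principal transcript is 1587 bp for Gngt2, in the class of 1200 to 2000 bp with a median of 0.13 in control 2. For Pde6h it is 5940 bp, in the longest class, although other annotated Pde6h transcripts are much shorter. Where the annotation tags several transcripts of a gene as principal, the longest of them was used for these classes. The part of transcript length in the spread of both genes was not tested.

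The gene models bear on how these levels can be compared. GENCODE lists 4 transcripts of 211 to 5940 bp for Pde6h and 7 transcripts of 498 to 1587 bp for Gngt2, against 2 transcripts of 2586 to 2895 bp for Pde6c. FPKM divide by length, and the sources do not name the transcripts used for it. Exons of Gngt2 share 234 bp with exons of Abi3, and exons of Pde6h share 136 bp with exons of Arhgdib, in both cases on the opposite strand. These 2 neighbours, named for the overlap, were far lower. Abi3 measured 11.8 ± 0.88 and 19.8 ± 7.97 FPKM in control and knockout, and Arhgdib measured 23.6 ± 15.9 and 41.5 ± 19.8 FPKM. Use of the strand in counting was not stated.

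The order of levels had 2 tiers that did not mix in any library. Gnat2 and Gngt2 were each above Gnb3, Pde6c and Pde6h in 6 of 6 libraries. Within the upper tier Gngt2 was above Gnat2 in 4 libraries and below it in 2. Within the lower tier Pde6h was above Gnb3 in 4 of 6 libraries and above Pde6c in 4 of 6, and Gnb3 was above Pde6c in 3 of 6. Within a tier the order of the genes therefore varied between libraries.

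Together the 5 genes summed to 3063 ± 842 FPKM in control and 2598 ± 472 FPKM in knockout. This was 2.86% ± 0.55 and 2.50% ± 0.40 of the table's FPKM sum. Gngt2 made up 39.0% ± 7.14 of the 5-gene sum in control and 38.7% ± 0.88 in knockout, and Gnat2 made up 34.7% ± 6.01 and 36.9% ± 2.68. Gnb3 held 8.21% ± 2.06 and 7.88% ± 0.79, and Pde6c held 7.54% ± 1.18 and 8.45% ± 2.25. For each of these 4 genes the difference between the group means was smaller than the SD of at least 1 group.

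Pde6h was the member whose share did not overlap between the groups, a measure added after its values were seen. It made up 9.86%, 11.4% and 10.4% of the sum in control and 7.44%, 7.48% and 9.27% in knockout, or 10.5% ± 0.78 against 8.06% ± 1.04. An exact two-sided permutation test gave p = 0.10, the smallest that 3 against 3 libraries allow, and 0.50 after adjustment over the 5 shares. Relative to the sum of the other 4 subunits, Pde6h had a log2 difference of -0.43, while the median of tested genes set against the same sum was 0.16. On that scale 9.08% of 8622 tested genes had groups that did not overlap, and 2.18% had all knockouts below all controls.

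**Figure D2:**
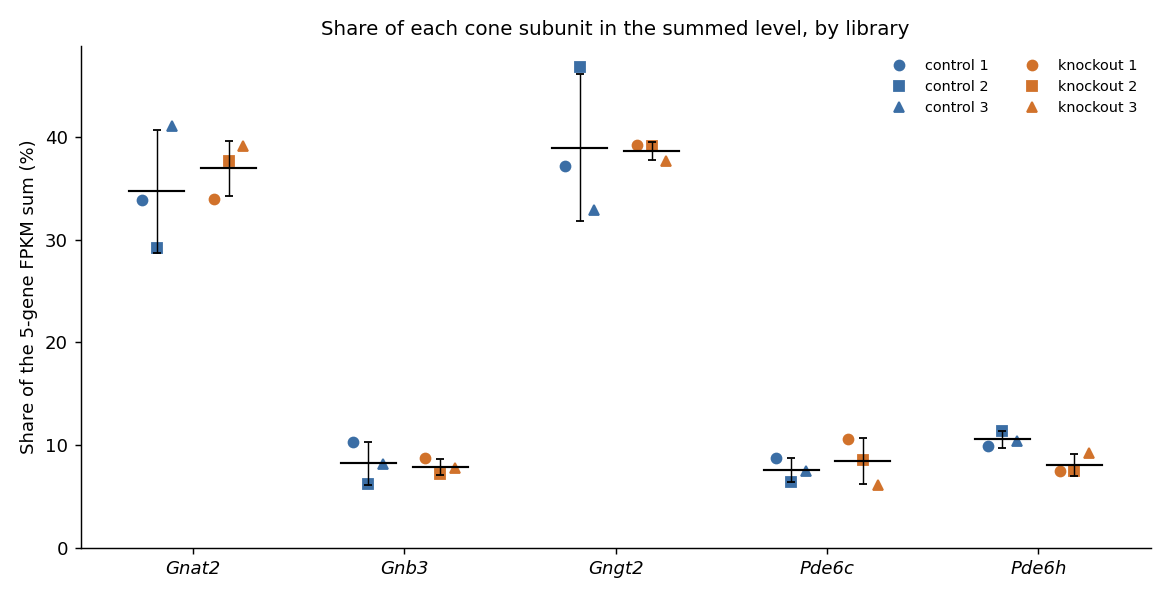
Share of each subunit in the 5-gene FPKM sum, in percent, with controls in blue and knockouts in orange, 1 point per library, black bars for the mean and error bars for the SD (n = 3). The 3 knockout points of Pde6h, from 7.44% to 9.27%, lie below its 3 control points, from 9.86% to 11.4%, and the other 4 genes overlap.

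Subunit ratios were formed within each library, which removes any difference in library scaling. For the transducin heterotrimer the Gnat2 to Gnb3 ratio was 3.29, 4.70 and 5.06 in control and 3.90, 5.27 and 5.04 in knockout. The alpha transcript was above the beta transcript in every library, and the groups overlapped. The Gnat2 to Gngt2 ratio was 0.91, 0.62 and 1.25 in control and 0.87, 0.96 and 1.04 in knockout, so control 2 lay below the 3 knockouts, control 3 above them and control 1 among them. The Gnb3 to Gngt2 ratio was 0.28, 0.13 and 0.25 in control and 0.22, 0.18 and 0.21 in knockout, and again the knockouts lay inside the control range.

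For PDE6 the catalytic to inhibitory ratio, Pde6c to Pde6h, was 0.89, 0.56 and 0.72 in control and 1.43, 1.15 and 0.66 in knockout. The catalytic transcript was below the inhibitory one in all 3 controls and in knockout 3, and above it in knockouts 1 and 2. The difference of mean log2 ratios was 0.53, from -0.49 in control to 0.04 in knockout, with a pooled SD of 0.47 (exact two-sided permutation p = 0.30). The Gnat2 to Pde6c ratio, which sets transducin against its effector, was 3.88, 4.57 and 5.49 in control and 3.19, 4.39 and 6.38 in knockout. Its mean was 4.64 ± 0.81 in control and 4.66 ± 1.61 in knockout.

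Across all 11 ratios, 5 within the cone set and 6 of a cone subunit to its rod-type paralog, none had groups that did not overlap. The exact two-sided permutation p ranged from 0.20 to 1.0, and was 0.99 or more after Benjamini-Hochberg adjustment over the 11. A design of 3 against 3 cannot go below 0.10.

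**Figure D3:**
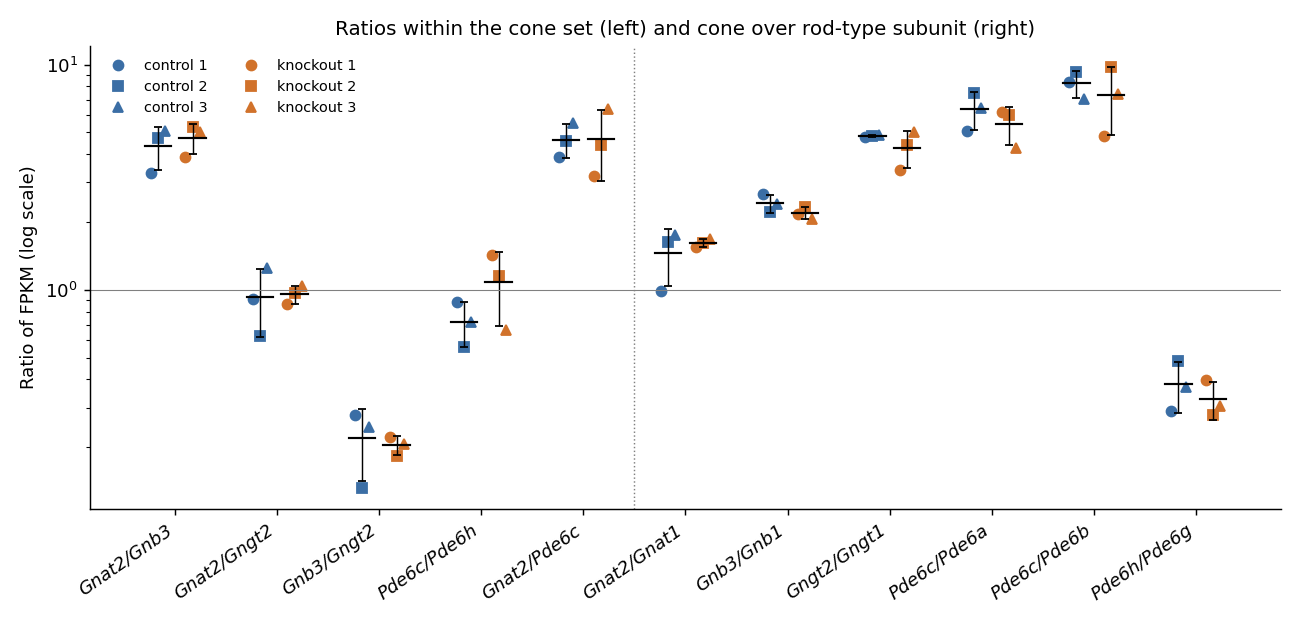
Ratios of FPKM on a log axis, within the cone set (left of the dotted line) and of a cone subunit to its rod-type paralog (right), with controls in blue and knockouts in orange, 1 point per library, black bars for the mean and error bars for the SD (n = 3). The horizontal line marks equal levels, and the Pde6c to Pde6h ratio ranges from 0.56 to 1.43 across it.

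Rod-type paralogs were present beside the cone subunits, at unequal levels. Gnat1, the rod alpha subunit, measured 728 ± 61.5 FPKM in control against 595 ± 124 FPKM in knockout. The Gnat2 to Gnat1 ratio was 0.98, 1.63 and 1.74 in control and 1.55, 1.61 and 1.69 in knockout, with control 1 the lowest. Pde6g, the rod inhibitory subunit, measured 845 ± 113 and 676 ± 266 FPKM and was above Pde6h in every library. The Pde6h to Pde6g ratio ranged from 0.28 to 0.48.

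The rod catalytic subunits were much lower than the cone catalytic subunit. Pde6a measured 35.8 ± 3.73 and 39.5 ± 4.13 FPKM, and Pde6b measured 27.7 ± 7.06 and 31.7 ± 12.96 FPKM. Pde6c exceeded Pde6a by 4.25 to 7.50 times and Pde6b by 4.84 to 9.73 times. Gngt1, the rod gamma subunit, measured 250.3 ± 100.5 and 235 ± 8.11 FPKM, and the Gngt2 to Gngt1 ratio was 4.78, 4.84 and 4.89 in control and 3.40, 4.41 and 5.02 in knockout. The controls were nearly equal in that ratio although both genes peaked in control 2. Gnb1, a beta subunit of rods that many other cells also express, measured 100.0 ± 16.1 and 93.3 ± 19.2 FPKM, and the Gnb3 to Gnb1 ratio lay between 2.06 and 2.65.

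None of the 6 rod-type genes passed in limma, none had an unadjusted p under 0.05, and their log2 differences ran from -0.40 for Pde6g to 0.15 for Pde6b. The inhibitory subunit had the lowest log2 difference in both sets, with -0.60 for Pde6h and -0.40 for Pde6g, and both 95% intervals included 0. The median difference was -0.21 over the 5 cone subunits and -0.06 over the 6 rod-type genes, beside -0.02 over all tested genes. All 5 cone subunits had a negative difference, as did 52.6% of the tested genes. This sign held under each scaling tried, and it turned for Gnat2, Gngt2 and Pde6c when certain libraries were left out.

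**Figure D4:**
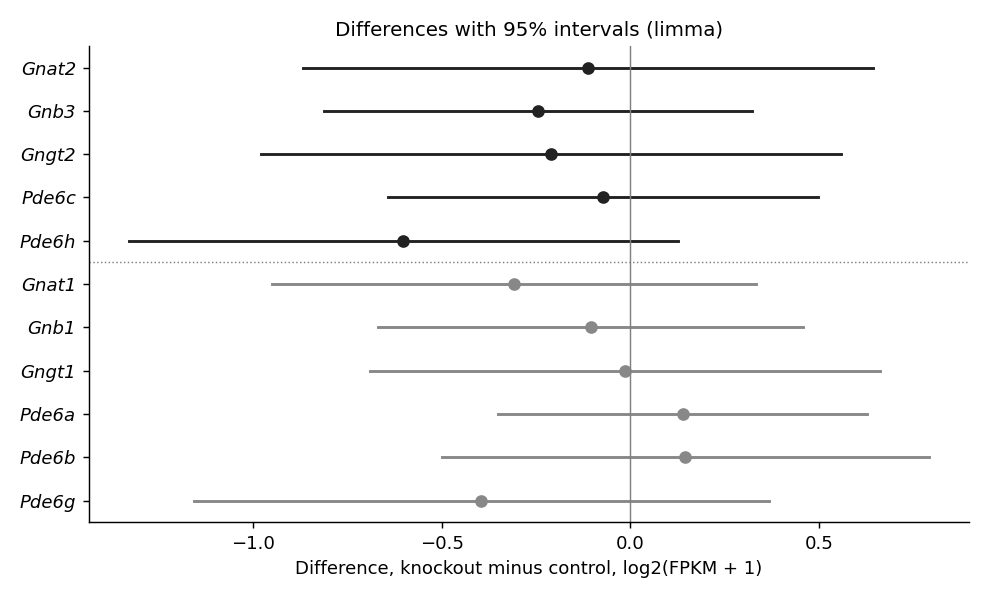
Difference of mean log2(FPKM + 1), knockout minus control, with 95% intervals from limma, for the 5 cone subunits (black) and the 6 rod-type subunits (grey). Every interval includes 0, and Pde6h lies furthest from it at -0.60.

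Known targets of BMAL1 were taken as a comparison. Of 12 tested E-box clock genes, 3 were called lower and 1 higher, against 0.104% of all 8627 tested genes called in either direction. Nr1d1, a repressor gene of the clock, was lower, at 4.13 ± 1.11 against 47.2 ± 8.98 FPKM in control (adjusted p = 0.00013, limma). BMAL1 with its partner CLOCK binds the E-box, so the promoters of the members were searched for that element and for 3 others. RefSeq promoter windows on GRCm38.p6 were at hand for 2 of the 5 members, Gnat2 and Pde6h, and those of Gnb3, Gngt2 and Pde6c were not used here. Each window covers 250 bases before and 50 bases after the annotated start, at chr3:108092816-108093115 and chr6:136954273-136954572, both on the plus strand. They are shown 5′ to 3′ because they surround RefSeq starts of the transducin alpha gene and of the gene with the largest difference, and capitals mark the matched letters. Both windows lie inside the gene spans given above, downstream of the first start that GENCODE lists for each gene. Those first starts were not searched.
Gnat2: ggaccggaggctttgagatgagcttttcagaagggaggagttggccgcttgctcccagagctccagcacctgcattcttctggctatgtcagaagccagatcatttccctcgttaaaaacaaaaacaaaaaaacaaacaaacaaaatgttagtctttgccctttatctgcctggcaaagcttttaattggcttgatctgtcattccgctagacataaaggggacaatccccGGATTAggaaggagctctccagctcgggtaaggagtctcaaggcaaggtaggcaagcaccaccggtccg
Pde6h: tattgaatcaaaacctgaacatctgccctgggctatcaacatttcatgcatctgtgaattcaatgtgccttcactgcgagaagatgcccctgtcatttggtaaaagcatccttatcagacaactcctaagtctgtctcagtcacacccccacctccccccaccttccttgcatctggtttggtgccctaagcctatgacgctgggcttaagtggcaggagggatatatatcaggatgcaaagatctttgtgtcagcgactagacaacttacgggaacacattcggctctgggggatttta

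The E-box CACGTG was found in neither window, on either strand, and is found in 7.15% of all 32851 promoter windows of this length. The D-box TTANGTAA, bound by PAR bZIP factors, was found in neither and is found in 2.32% of windows. The half-site AGGTCA of REV-ERB and ROR receptors was found in neither and is found in 16.3%. The core TAATCC, bound by the photoreceptor factor CRX, was found in Gnat2 as its reverse complement GGATTA, from base -19 to base -14 before the start, and not in Pde6h. It is found in 7.06% of windows. A match is a description of letters only, and the absence of a match concerns these 300 bases only.

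Partners that build, modify and carry the subunits were measured next. Of 30 genes listed for assembly, lipid modification and transport, 26 were tested, 14 with a positive and 12 with a negative difference (median 0.08). No gene passed in limma, and no unadjusted p was under 0.05. Pdc, which encodes the transducin beta-gamma binding protein phosducin, was the most abundant at 163 ± 51.5 and 202 ± 20.9 FPKM. Arl3, a small GTPase that releases lipid-modified cargo at the outer segment, measured 44.4 ± 7.32 and 30.4 ± 9.87 FPKM (adjusted p = 0.90, limma). Pdcl3, a phosducin-like gene, measured 6.35 ± 2.12 and 3.72 ± 2.26 FPKM, and Arl2, a related GTPase gene, measured 3.69 ± 0.62 and 2.58 ± 0.69 FPKM. Chosen after their values were seen, Aipl1, the PDE6 chaperone, measured 140.6 ± 37.3 and 125 ± 33.3 FPKM, and Pde6d, which carries prenylated PDE6, measured 50.9 ± 3.95 and 47.1 ± 3.14 FPKM.

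The 3 genes of the complex that ends transducin signalling did not pass either, with a median difference of 0.00. Rgs9, the GTPase-activating protein, measured 95.1 ± 15.5 and 95.6 ± 18.1 FPKM. Gnb5, its obligate beta partner, measured 26.5 ± 6.00 and 29.7 ± 6.18 FPKM, and Rgs9bp, its membrane anchor, measured 48.4 ± 8.18 and 45.1 ± 7.54 FPKM. Of 15 other cone phototransduction genes tested, 7 were positive and 8 negative, and their median was -0.02. No gene of these passed in limma. Of these 15, 3 had an unadjusted p under 0.05, against 5.49% of all tested genes, and 2 had groups that did not overlap, against 9.39%. Those 3 were Opn1sw, Slc24a2 and Guca1a. Opn1sw, the short-wavelength opsin gene, measured 981 ± 235 and 1947 ± 160 FPKM, a log2 difference of 1.01 ± 0.32 (adjusted p = 0.65, limma). Slc24a2, a cone calcium exchanger gene, had a log2 difference of 0.58 (adjusted p = 0.87, limma). Guca1a, which activates guanylate cyclase at low calcium, had a log2 difference of -0.76 (adjusted p = 0.90, limma), further from 0 than that of Pde6h.

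The genes with the most similar profiles were taken by the root mean square difference of log2(FPKM + 1) about each gene's own mean over the 6 libraries, among 8625 other tested genes. The measure describes libraries that the genes share and carries no test. For Gnat2 they were Dusp19, Clptm1 and St3gal3, at 0.048, 0.058 and 0.064 log2 units. For Gnb3 they were Isg20l2, Ppp6r1 and Maea, at 0.028, 0.034 and 0.041. For Gngt2 they were Dad1, Cdk4 and Mrpl54, at 0.092, 0.095 and 0.096. None of these 9 is a cone subunit.

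For Pde6c the nearest were Elac2, Dis3l and Rdx, at 0.043, 0.043 and 0.046 log2 units. For Pde6h they were Spsb4, Nop10 and Ier3, at 0.080, 0.087 and 0.11. Among the members the closest pair was Gnb3 and Pde6c at 0.24, followed by Gnb3 and Gnat2, also at 0.24, and Gngt2 and Pde6h at 0.26. The most distant pair was Pde6c and Pde6h at 0.46, the catalytic and the inhibitory subunit of the same enzyme. For Pde6h, Gngt2 ranked 200 among the 8625 genes and Pde6c ranked 2990. For Gngt2, Pde6h ranked 468. The pair closest in log2 units ranked further down, with Pde6c at 2818 for Gnb3 and Gnb3 at 2901 for Pde6c.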

How the data were processed

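Per the labels' protocols, sorted eGFP-positive cones gave 6 strand-directional poly(A) libraries, read as pairs of 150 bases. The authors deposited FPKM values in 1 table. Tools listed in the submitters' processing notes, with no roles, are Cufflinks 2.2.1, DESeq2, HTSeq and TopHat2 2.1.0, with build mm10. No value lies under 0.1 FPKM, depth is unknown, and no counting interval is given. Groups came from the genotype labels.

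Values were taken as log2(FPKM + 1). Genes averaging 1 FPKM or more (8627) were fitted with limma 3.58.1 in R 4.3.3, using a variance trend. Its two-sided p-values were adjusted by Benjamini-Hochberg over these genes, with a threshold of 0.05. The fit was tested on simulated data. Ratios and shares were compared by exact permutation over 20 regroupings (scipy 1.17.1, Python 3.11.15). Positions are from GENCODE vM21 (GRCm38), with 9702 of 9720 gene IDs matched, and 15 symbols stored as date numbers were restored. Alternatives covered pseudocount, filter, scaling, variance model, weights, a rod covariate, a replicate block and left-out libraries. Named genes were the members, their paralogs, the 3 nearest profiles of each, and up to 4 per list by abundance and smallest p. The members and lists were chosen with earlier results of these data known.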

Additional observations from a re-analysis of the deposited data

How the results depend on the processing

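None of the 5 members passed in limma in any of the 19 alternatives, and the lowest adjusted p was 0.25, for Pde6h with array weights. The unadjusted p of Pde6h in limma ran from 0.0083 without control 1 to 0.33 without control 2. It was 0.054 with sum scaling, 0.043 when that sum left out Gm17364, and 0.070 with median-ratio scaling. Quantile normalization gave 0.029 and array weights gave 0.0083. Array weights also raised the number of genes called from 9 to 23, 11 higher and 12 lower, and the cause was not tested. Of 95 alternative values of the members' differences, 5 changed sign, all with a library left out. Without each library in turn the difference ranged from -0.37 to 0.10 for Gnat2 (positive without control 3 or knockout 1), from -0.48 to 0.093 for Gngt2 (positive without control 2) and from -0.20 to 0.014 for Pde6c (positive without control 3 or knockout 3). It ranged from -0.36 to -0.15 for Gnb3 and from -0.89 to -0.38 for Pde6h. Other settings went further for 4 members. The lowest values were -0.44 for Gnat2, -0.39 for Gnb3 and -0.23 for Pde6c with the rod marker covariate, and -0.51 for Gngt2 with array weights. Scaling to a sum without Gm17364 was chosen after seeing the data and called 11 genes.

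Of the 11 ratios, 6 changed sign without some library. Their log2 differences ranged from -0.055 to 0.27 for Gnat2 to Gnb3, from -0.16 to 0.34 for Gnat2 to Gngt2 and from -0.36 to 0.17 for Gnb3 to Gngt2. They ranged from -0.30 to 0.20 for Gnat2 to Pde6c, from -0.062 to 0.35 for Gnat2 to Gnat1 and from -0.46 to 0.048 for Pde6c to Pde6b.

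The labels give no pairing of same-numbered libraries. Their deviations from the group means correlated at -0.12, -0.09 and -0.03, and no library correlated best with its own number. With 3 libraries per group, these correlations cannot show whether a pairing exists. With the replicate number as a block, 6 genes and 0 members were called, and the adjusted p of Pde6h was 0.87 in limma. Without one library at a time 6 to 13 genes were called.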

Other observations

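Other subunits of the same protein families were low beside the cone forms. Of 13 other G protein alpha genes listed, 9 were tested and none passed in limma or had an unadjusted p under 0.05, and their median was -0.06. The most abundant was Gnas, the stimulatory alpha subunit, at 36.0 ± 8.05 FPKM in control and 27.6 ± 3.35 FPKM in knockout. Gna11 read 2.12, 2.36 and 2.45 FPKM in the controls, against 1.42, 1.59 and 1.73 in the knockouts, so its groups did not overlap (adjusted p = 0.91, limma). Such groups were seen for 1 of the 9 genes, against 9.39% of all tested genes. Of 12 other beta and gamma genes, 5 were tested and none passed. An unadjusted p under 0.05 in limma was seen for 2, against 5.49% of all tested genes. Those 2 were Gng5 and Gng13, which is also counted among the bipolar markers above. Gnb2 measured 6.06 ± 3.54 and 5.99 ± 1.11 FPKM. Gng5, a widely expressed gamma subunit, measured 4.70 ± 1.53 and 8.03 ± 1.19 FPKM (adjusted p = 0.78, limma).

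Of 18 other phosphodiesterase genes, 6 were tested, and all 6 differences were positive (median 0.27). No gene passed in limma, and no unadjusted p was under 0.05. Pde8b, a cyclic AMP phosphodiesterase, led them at 19.97 ± 4.41 FPKM in control and 25.5 ± 3.69 FPKM in knockout. Pde1c, a calmodulin-dependent enzyme, measured 1.40 ± 0.16 and 1.98 ± 0.12 FPKM, and its groups did not overlap (adjusted p = 0.93, limma). Such groups were seen for 1 of the 6 genes, against 9.39% of all tested genes.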
